A study of Mus with 9 samples.

Results

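The genes described here are 9 genes of the red cell: the adult alpha globins Hba-a1 and Hba-a2, the adult beta globins Hbb-bs and Hbb-bt, the membrane proteins Slc4a1 and Epb42, the carbonic anhydrases Car1 and Car2, and the globin chaperone Ahsp. They were matched by gene name in a table of RNA sequencing counts. Of the 9, 8 were found among the 54532 genes of the table, and Ahsp was not analysed here. All 8 passed the filter on low counts that left 15660 genes for testing.

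Haemoglobin is a tetramer of alpha and beta globin chains, each holding a haem group, and it is made in quantity only by maturing red cells. The developing red cell also builds a membrane skeleton tied to the anion exchanger Slc4a1, and carbonic anhydrases that convert carbon dioxide and bicarbonate. In adult bone marrow these genes are switched on in order as erythroid precursors mature under the transcription factors GATA1, TAL1 and KLF1.

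RNA of mouse bone marrow cells was measured in 9 libraries, 3 in each of 3 groups. In every group the donor cells were fetal liver cells of embryonic day 12.5 from mice with a conditional knock-in of AML1-ETO, a fusion of RUNX1 and RUNX1T1 found in acute myeloid leukaemia, tagged with mCherry, infected with the retrovirus MSCV-IRES-EGFP. The virus was empty (Vec), carried the wild-type coding sequence of the G1 cyclin CCND2 (CCND2wt) or carried it with the change Thr280Ala (CCND2mut). Infected cells positive for mCherry and GFP went into lethally irradiated C57BL/6 mice together with supportive cells, whose descendants, like surviving host cells, can also contribute RNA to marrow. The sources used here do not give the age of the recipients, the day of collection, any sorting of the marrow or any lysis of red cells.

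Library totals were 15043755 to 17593634 counts. Levels are given in CPM, the usual unit of counts scaled to library size, here with TMM factors, as mean ± SD with n = 3 libraries a group. No label states that replicates came from different mice, so each p-value reflects the spread among these libraries alone, and that spread may be technical. The CCND2wt libraries lay close together: a chi-square statistic per gene between their pairs was 7 to 17.7, against 53.3 to 148 between the other pairs of a group. Mouse Ccnd2 itself ranged over 76.2 to 86.2 CPM (Vec), 7.3 to 11.1 CPM (CCND2wt) and 12.6 to 58.2 CPM (CCND2mut). Whether transcripts of the vector could be counted at that gene is not given in the sources used here, so these values do not check the labels. In red cell genes Vec 2 also lay far from the other Vec libraries: Hbb-bs in Vec 1 was 3.96 times its level in Vec 4 and 134 times that in Vec 2. Vec 1 had the highest summed markers of red cells and of neutrophils in Vec, and the tests of the 8 genes are given with and without it. For other genes and lists the value without it is given where it changes a call or moves a called value by over 1.5 times.

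Among the 8 genes, Hbb-bs and Hba-a1 had the highest mean level per unit of transcript length in each group. Hbb-bs, an adult beta globin gene (ENSMUSG00000052305, mm10 chromosome 7, 103826534 to 103828096, minus strand), was at 6915, 51.7 and 1746 CPM in Vec 1, 2 and 4. It was at 432, 434 and 521 CPM in CCND2wt 2, 3 and 4, and at 119, 15.4 and 30.2 CPM in CCND2mut 1, 2 and 3. The Vec libraries thus spanned a range of 134 times from lowest to highest, while those of CCND2wt lay within 1.21 times of each other. Vec 2 was below every CCND2wt library and below CCND2mut 1. In Vec 1, Hbb-bs ranked 3 among all genes by counts, against 4254 in Vec 2 and 38 in Vec 4. Its rank was 202 to 300 in CCND2wt, and 2032, 7976 and 6318 in CCND2mut 1, 2 and 3.

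Hba-a1, the more counted of the adult alpha globin genes (ENSMUSG00000069919, chromosome 11, 32283511 to 32284465, plus strand), had nearly the same profile. Its levels were 5828, 43.9 and 1208 CPM in Vec 1, 2 and 4, then 408, 413 and 447 CPM in CCND2wt 2, 3 and 4, and 96, 11.1 and 28.4 CPM in CCND2mut 1, 2 and 3. Again CCND2mut lay wholly below CCND2wt, and Vec overlapped both. The profiles of Hba-a1 and Hbb-bs over the 9 libraries differed by a root mean square of 0.15 on the log2(CPM + 1) scale after each was centred on its mean, the closest of all pairs among the 8 genes.

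The minor partners of these genes followed them. Hba-a2 (ENSMUSG00000069917, chromosome 11, 32296489 to 32297298, plus strand) was at 1037, 8.96 and 207 CPM in Vec 1, 2 and 4, at 48.9, 42.7 and 89.5 CPM in CCND2wt 2, 3 and 4, and at 11.2, 1 and 2.26 CPM in CCND2mut 1, 2 and 3. Hbb-bt (ENSMUSG00000073940, chromosome 7, 103812524 to 103813996, minus strand) was at 1417, 29.1 and 392 CPM in Vec 1, 2 and 4, at 110, 111 and 142 CPM in CCND2wt 2, 3 and 4, and at 31, 2.67 and 8.37 CPM in CCND2mut 1, 2 and 3. For both genes Vec 1 was the highest of the 9 libraries, CCND2mut 2 the lowest, and Vec 2 was below CCND2mut 1. The coding parts of Hba-a1 and Hba-a2 are near-identical copies, as are those of Hbb-bs and Hbb-bt, so that the counting could split their reads and the level of a single copy is uncertain.

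Slc4a1 encodes band 3, which exchanges chloride for bicarbonate and anchors the membrane skeleton (ENSMUSG00000006574, chromosome 11, 102348824 to 102366203, minus strand). It was at 1152, 5.09 and 135 CPM in Vec 1, 2 and 4, at 44.1, 41 and 52.5 CPM in CCND2wt 2, 3 and 4, and at 26.3, 0.267 and 9.03 CPM in CCND2mut 1, 2 and 3. Its spread was the widest among the membrane and globin genes in Vec, 226 times, and it was also wide in CCND2mut, 98.4 times.

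Epb42 encodes protein 4.2, which binds band 3 to ankyrin (ENSMUSG00000023216, chromosome 2, 121017891 to 121037072, minus strand). It was at 86.3, 3.33 and 12.9 CPM in Vec 1, 2 and 4, at 11.4, 11.5 and 12.7 CPM in CCND2wt 2, 3 and 4, and at 1.58, 0.134 and 0.93 CPM in CCND2mut 1, 2 and 3. Here every Vec library, Vec 2 included, was above every CCND2mut library, and CCND2wt lay between the lowest and highest Vec libraries.

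The carbonic anhydrases did not follow each other. Car1, an isoform of red cells (ENSMUSG00000027556, chromosome 3, 14766216 to 14808368, minus strand), was at 56.3, 0.204 and 3.72 CPM in Vec 1, 2 and 4. It was at 1.48, 1.25 and 2.42 CPM in CCND2wt 2, 3 and 4, and at 0.729, 0.0668 and 0.266 CPM in CCND2mut 1, 2 and 3. Its counts were 3 in Vec 2 and 12, 1 and 4 in the CCND2mut libraries, so that its low levels rest on few reads. Car1 had the widest span of the 8 genes in Vec, 276 times.

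Car2 encodes carbonic anhydrase II, found in red cells and in several other cell types (ENSMUSG00000027562, chromosome 3, 14886273 to 14900770, plus strand). It was at 1193, 810 and 757 CPM in Vec 1, 2 and 4, at 653, 595 and 574 CPM in CCND2wt 2, 3 and 4, and at 35.5, 0.401 and 5.45 CPM in CCND2mut 1, 2 and 3. The Vec libraries lay within 1.58 times of each other, where the other 7 genes spanned 25.9 times or more. All 3 groups were separate, with Vec highest and CCND2mut lowest. Within CCND2mut, Car2 spanned 88.5 times, from 6 counts in CCND2mut 2 to 584 in CCND2mut 1.

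**Figure D1:**
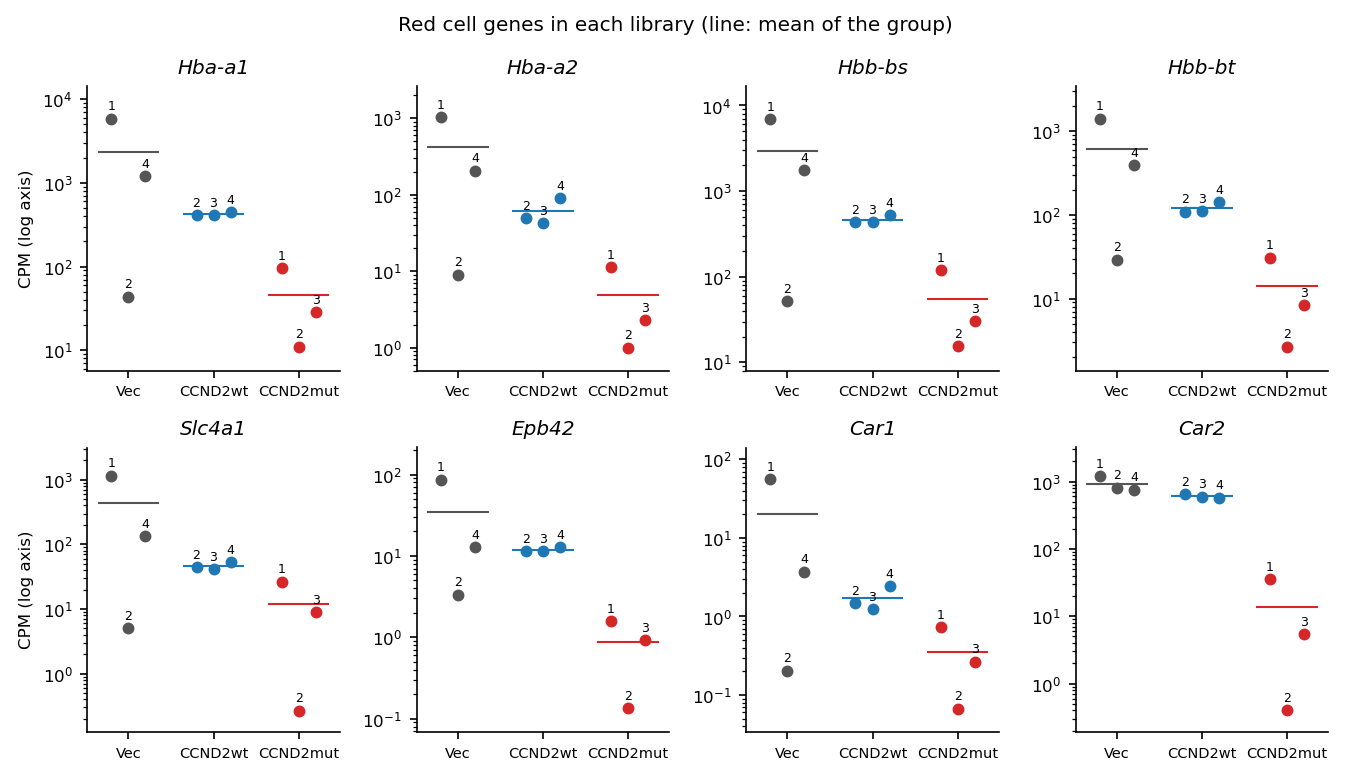
Level of each of the 8 genes in CPM (log axis) in the 9 libraries, coloured by group; points are libraries with their replicate number, and lines are group means. Vec 1 is the highest library for every gene, Vec 2 lies below CCND2mut 1 for 6 of the 8, and Car2 is even across Vec, at 757 to 1193 CPM.

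Per kilobase of the counted length, mean levels in Vec were 3782 CPM for Hbb-bs, 2906 for Hba-a1, 872 for Hbb-bt and 626 for Hba-a2. The corresponding means were 380 for Car2, 88.1 for Slc4a1, 16.1 for Car1 and 6.31 for Epb42. Hbb-bs was first of the 8 genes in 8 of the 9 libraries, and Hba-a1 was second in those. Vec 2 was the exception, where Car2 led with 335 CPM per kilobase against 67.4 for Hbb-bs. In CCND2wt the order of the means ran Hbb-bs at 602, Hba-a1 at 520, Car2 at 251, Hbb-bt at 172, Hba-a2 at 90.5, Slc4a1 at 9.38, Epb42 at 2.19 and Car1 at 1.38 CPM per kilobase. In CCND2mut, Car2 ranked 5 with 5.68 CPM per kilobase, behind the 4 globins at 7.21 to 71.3.

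The first comparison is of CCND2wt with Vec, which addresses what added wild-type CCND2 changes in AML1-ETO marrow. None of the 8 genes passed the test, by edgeR's quasi-likelihood test with Benjamini-Hochberg adjustment over all 15660 genes, while 9.05% of all genes passed as lower. At an unadjusted p under 0.05 edgeR called 1 of the 8, and DESeq2 and limma-voom called 0. Mean Hbb-bs was 463 ± 50.8 CPM in CCND2wt and 2904 ± 3575 CPM in Vec, a log2 difference of -2.65 (SE 1.34, edgeR adjusted p = 0.194). The SD in Vec exceeded its mean, and the groups overlapped. Mean Hba-a1 was 422 ± 21.4 CPM in CCND2wt and 2360 ± 3059 CPM in Vec, a log2 difference of -2.48 (SE 1.34, edgeR adjusted p = 0.222). Car2 was the only gene of the 8 with all CCND2wt libraries below all Vec libraries, a pattern that 23.7% of tested genes showed. Its means were 607 ± 40.8 and 920 ± 238 CPM, a log2 difference of -0.60 (SE 0.986, edgeR adjusted p = 0.71). Only a fit of these 2 groups alone called it (log2 -0.61, SE 0.188, edgeR adjusted p = 0.049966), and leaving out Vec 2 called Car1 (edgeR adjusted p = 0.0473).

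Without Vec 1, the median log2 difference of the 8 genes between CCND2wt and Vec was -0.57, against -2.57 with it; the median over all tested genes was 0 and -0.04. Again 0 of the 8 passed in edgeR, with 0 at an unadjusted p under 0.05, where 8.38% of all genes passed as lower. Hbb-bs then differed by -0.94 (SE 1.2, edgeR adjusted p = 0.633) and Car1 by -0.17 (SE 1.00, edgeR adjusted p = 0.927). For Epb42 the sign turned, from -1.53 (SE 1.01) to 0.56 (SE 0.729), with edgeR adjusted p-values of 0.317 and 0.635. The mean of Vec 2 and Vec 4 was 899 CPM for Hbb-bs, against 463 CPM in CCND2wt.

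The second comparison, of CCND2mut with Vec, gave lower levels for every gene. All 8 passed as lower in edgeR, against 26.9% of all tested genes, with a median log2 difference of -5.72 against -0.03 over all genes. DESeq2 called 7 of the 8, limma-voom 3 (Hbb-bs, Hbb-bt and Car2), and edgeR without a filter on low counts 2 (Car2 and Epb42). Mean Hbb-bs was 54.8 ± 55.9 CPM in CCND2mut and 2904 ± 3575 CPM in Vec, and it fell by 5.73 on the log2 scale (SE 1.54, edgeR adjusted p = 0.0144). Hba-a1 fell by 5.71 (SE 1.56, edgeR adjusted p = 0.0151), from 2360 ± 3059 to 45.2 ± 44.9 CPM. Among the minor copies, Hbb-bt fell by 5.45 (SE 1.39) and Hba-a2 by 6.43 (SE 1.64), both with an edgeR adjusted p of 0.0112. The falls of the 4 adult globins lay within 1 standard error of each other.

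Of the membrane genes, Epb42 fell by 5.25 on the log2 scale (SE 1.24, edgeR adjusted p = 0.00797), from 34.2 ± 45.4 to 0.881 ± 0.724 CPM. Slc4a1 fell by 5.18 (SE 1.81, edgeR adjusted p = 0.041), from 431 ± 628 to 11.9 ± 13.2 CPM. Car1 fell by 5.77 (SE 1.74, edgeR adjusted p = 0.023), from 20.1 ± 31.4 to 0.354 ± 0.34 CPM. Car2 had the smallest adjusted p of the 8 genes: it fell by 6.06 (SE 1.23, edgeR adjusted p = 0.00389), from 920 ± 238 to 13.8 ± 19 CPM. Only Car2 and Epb42 had groups that did not overlap, 2 of 8 against 29.2% of tested genes with all CCND2mut libraries below all Vec libraries. For the other 6 genes Vec 2 lay below CCND2mut 1.

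Without Vec 1, 6 of the 8 genes passed as lower in CCND2mut, against 25.5% of tested genes, and the median log2 difference was -3.87. Hbb-bs then fell by 4.06 (SE 1.28, edgeR adjusted p = 0.0315), Hba-a1 by 3.81 (SE 1.23, edgeR adjusted p = 0.0343) and Epb42 by 3.20 (SE 0.781, edgeR adjusted p = 0.0112). Slc4a1 differed by -2.58 (SE 1.39, edgeR adjusted p = 0.157) and Car1 by -2.44 (SE 1.10, edgeR adjusted p = 0.0984), and neither passed. Car2 moved least when Vec 1 was left out, to a fall of 5.85 (SE 1.25, edgeR adjusted p = 0.00643). Without CCND2mut 1, where red cell genes were highest in that group, all 8 passed and Car2 fell by 8.29 (SE 0.982, edgeR adjusted p = 0.000502). Without CCND2mut 3 only Hba-a2, Hbb-bt, Car2 and Epb42 passed, and Hbb-bs fell short with an edgeR adjusted p of 0.0525.

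The third comparison, of CCND2mut with CCND2wt, does not use the Vec levels. All 8 genes were lower in every CCND2mut library than in every CCND2wt library, a separation that 32.2% of tested genes showed in this direction. In edgeR 2 of the 8 passed as lower, against 23.8% of all genes, with a median log2 difference of -3.17. These were Car2, which fell by 5.46 (SE 1.2, edgeR adjusted p = 0.00607), and Epb42, which fell by 3.72 (SE 1.19, edgeR adjusted p = 0.0313). Among the globins, Hbb-bs differed by -3.08 (SE 1.36, edgeR adjusted p = 0.0958) and Hba-a2 by -3.64 (SE 1.46, edgeR adjusted p = 0.0701). The smallest difference was that of Slc4a1, -1.95 (SE 1.59, edgeR adjusted p = 0.347).

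All groups share 1 estimate of the spread, so the wide Vec group enters this comparison too. Without Vec 1 the number of genes that passed was 5 of 8, against 24.8% of tested genes, and Hba-a1, Hba-a2 and Hbb-bt joined Car2 and Epb42 at differences of -3.27, -3.68 and -3.15. The edgeR adjusted p of these 3 genes was 0.0487, 0.0371 and 0.0408. Without Vec 2 it was 6 of 8. It was 1 of 8, Car2 alone, without CCND2wt 2, CCND2wt 3, CCND2wt 4, CCND2mut 2 or CCND2mut 3, and without CCND2mut 1 it was 2, Car2 and Hbb-bt. DESeq2 called 5 of 8, edgeR on only the 2 groups compared 7, and limma-voom and edgeR without a filter on low counts 1 each. With the closely matched CCND2wt libraries summed to 1 sample it was 0 by edgeR, with an adjusted p of 0.0667 for Car2. The comparisons with Vec share their control libraries, so that their values are set side by side here and do not count as separate evidence.

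**Figure D2:**
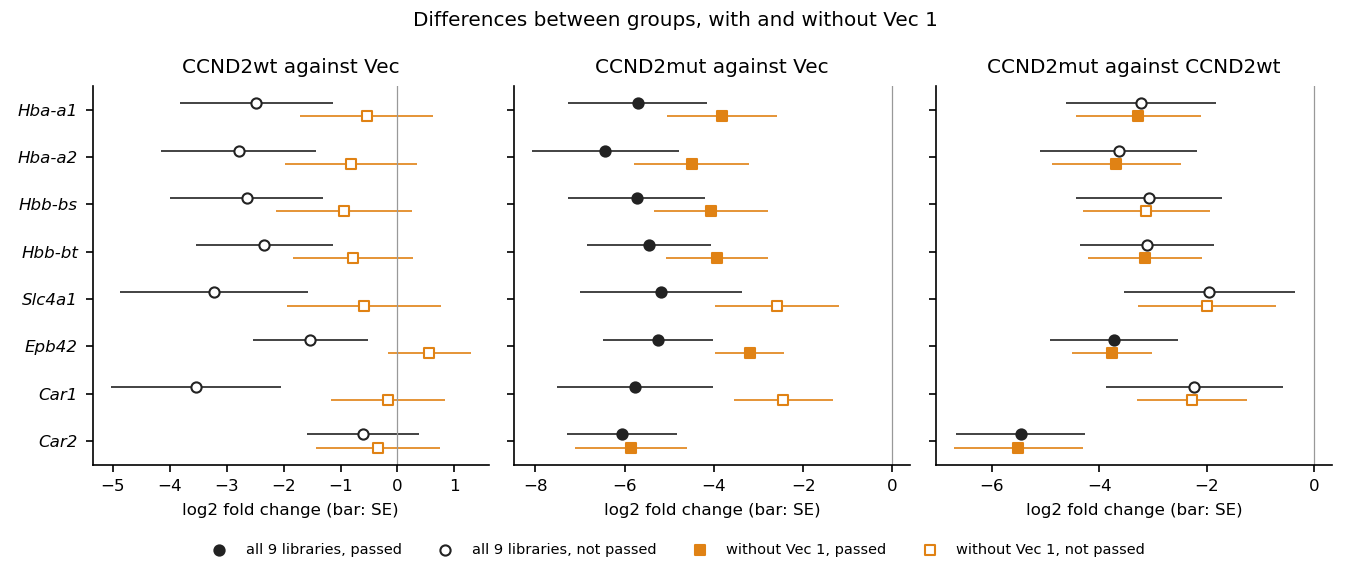
Log2 fold change (x axis, bars are standard errors) of the 8 genes in the 3 comparisons, from all 9 libraries (circles) and without Vec 1 (squares); filled symbols passed an adjusted p of 0.05. Leaving out Vec 1 moves most values against Vec toward 0, while Car2 stays near -6 in CCND2mut against Vec (-6.06 and -5.85).

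Haemoglobin genes together, 10 protein-coding genes in the table, took 1.51%, 0.0126% and 0.356% of all counts in Vec 1, 2 and 4. The share was 0.107%, 0.105% and 0.131% in CCND2wt 2, 3 and 4, and 0.0247%, 0.00269% and 0.00693% in CCND2mut 1, 2 and 3. Vec 2 was lower than all 3 CCND2wt libraries and lower than CCND2mut 1. Group means were 0.627% ± 0.786, 0.115% ± 0.0147 and 0.0115% ± 0.0117 (SD, n = 3), and the mean of Vec without Vec 1 was 0.184%. By a two-sided exact permutation test the share differed with p = 0.4 between CCND2wt and Vec, p = 0.2 between CCND2mut and Vec and p = 0.1 between CCND2mut and CCND2wt. The values adjusted over the 3 tests were 0.4, 0.3 and 0.3, and 0.1 is the smallest p that 3 libraries against 3 can give. In bulk RNA, fewer red cell precursors and less of these RNAs per cell cannot be told apart.

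The make-up of the globin counts can be compared even where their sum is low. The ratio of alpha counts (Hba-a1 and Hba-a2) to beta counts (Hbb-bs and Hbb-bt) was 0.824, 0.654 and 0.662 in Vec 1, 2 and 4. It was 0.842, 0.835 and 0.808 in CCND2wt 2, 3 and 4, and 0.716, 0.674 and 0.795 in CCND2mut 1, 2 and 3. Although haemoglobin took 1.51% of counts in Vec 1 and 0.00269% in CCND2mut 2, this ratio stayed between 0.654 and 0.842. The exact 95% interval, which covers counting error only, was 0.817 to 0.83 in Vec 1 and 0.597 to 0.716 in Vec 2, so that these libraries differed beyond counting error. In CCND2mut 2, with 182 alpha and 270 beta counts, it was 0.555 to 0.816 and reached most of the other libraries.

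Hbb-bt made up 17% and 18.3% of the beta counts in Vec 1 and Vec 4, but 36% in Vec 2 (exact 95% interval 33.3% to 38.8%). It made up 20.3%, 20.3% and 21.4% in CCND2wt 2, 3 and 4, and 20.7%, 14.8% and 21.7% in CCND2mut 1, 2 and 3. Vec 2 was alone in its high share of Hbb-bt. The share of Hba-a2 among the alpha counts was 15.1%, 16.9% and 14.7% in Vec 1, 2 and 4 and 16.7% in CCND2wt 4. It was 10.7% and 9.37% in CCND2wt 2 and 3, and 10.4%, 8.24% and 7.38% in CCND2mut 1, 2 and 3. CCND2wt 4 thus stood apart from the other CCND2wt libraries, with an exact 95% interval of 16% to 17.4% against 10.1% to 11.4% in CCND2wt 2. Whether the counting split the copies differently was not tested.

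**Figure D3:**
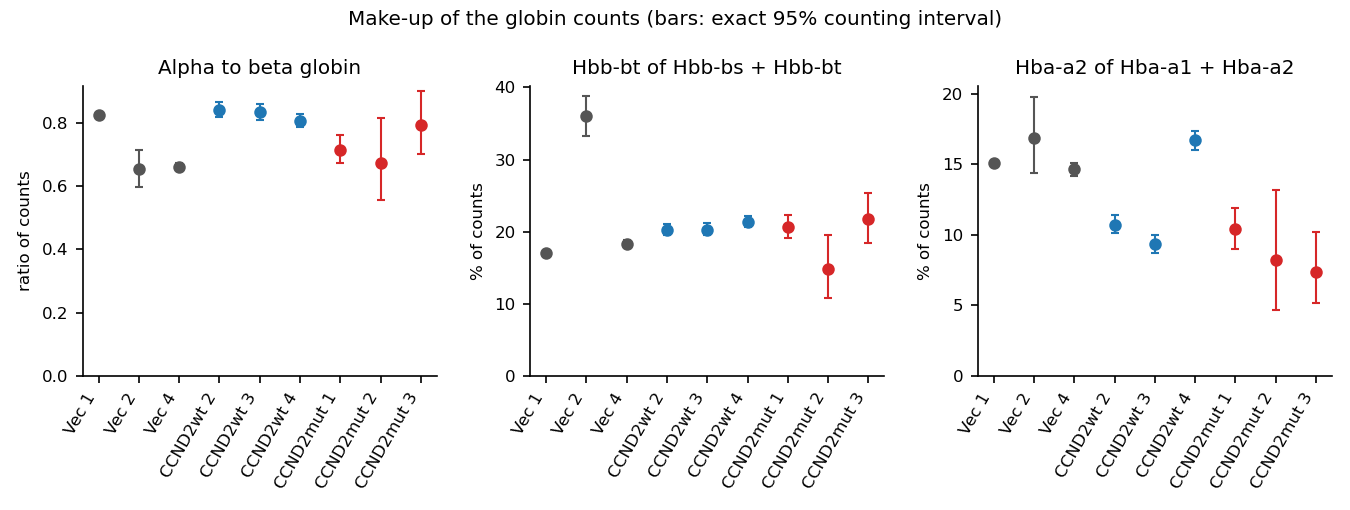
Ratio of alpha to beta globin counts, share of Hbb-bt in the beta counts and share of Hba-a2 in the alpha counts for each library, coloured by group, with exact 95% counting intervals; all axes start at 0. The alpha to beta ratio lies between 0.654 and 0.842 in all 9 libraries, and Vec 2 stands apart with 36% Hbb-bt.

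The other red cell genes did not keep a fixed proportion to the globins. Slc4a1 gave 7.58, 3.81 and 3.8 counts per 100 adult globin counts in Vec 1, 2 and 4. It gave 4.41, 4.1 and 4.38 in CCND2wt 2, 3 and 4. In CCND2mut 1, 2 and 3 it gave 10.2, 0.885 and 13.1. Car2 gave 7.85, 606 and 21.3 counts per 100 globin counts in Vec 1, 2 and 4. The value was 65.4, 59.5 and 47.9 in CCND2wt 2, 3 and 4, and 13.8, 1.33 and 7.88 in CCND2mut 1, 2 and 3. In Vec 2, Car2 was thus counted more often than all adult globins together, and in CCND2mut 2 it had 6 counts beside 452 globin counts.

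Likeness of profiles set Car2 apart in the same way. Its root mean square difference from the other 7 genes was 1.81 to 2.85 on the log2(CPM + 1) scale, while the 4 globins lay within 0.41 of each other. Over 10886 genes compared in the 9 libraries, the protein-coding gene nearest to Hbb-bs was Alas2, the first enzyme of haem synthesis in red cells, at 0.45. Alas2 was also nearest to Hba-a1 (0.46), Hba-a2 (0.63), Hbb-bt (0.55) and Slc4a1 (0.53). Its own levels were 481, 3.67 and 125 CPM in Vec 1, 2 and 4, 31.6, 27.6 and 34.5 CPM in CCND2wt 2, 3 and 4, and 11.2, 0.935 and 4.52 CPM in CCND2mut 1, 2 and 3. Next to the globins came Apol11b, at 0.79 to 0.93, and for 3 of them Tmcc2, at 0.60 to 0.93, and next to Slc4a1 came Apol11b (0.83) and Ermap (0.91).

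Epb42 was nearest to Ank1, the gene of red cell ankyrin, at 0.26, followed by Dmtn at 0.46 and Ube2l6 at 0.53. Car1 was nearest to Cldn13 at 0.24, the blood group gene Kel at 0.25 and Btnl10 at 0.26, all highest in Vec 1. The neighbours of Car2 were of another kind: F2r, the thrombin receptor gene, at 0.67, Myct1 at 0.67 and Dntt, which adds bases to rearranging antigen receptor genes of early lymphoid cells, at 0.68. Dntt was at 242, 350 and 314 CPM in Vec 1, 2 and 4, at 268, 247 and 211 CPM in CCND2wt 2, 3 and 4, and at 5.71, 0 and 0 CPM in CCND2mut 1, 2 and 3. Like Car2, it was lower in every CCND2mut library than in any other library. These likenesses are descriptions over 9 libraries that share their depth and groups.

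Embryonic globin RNA was scarce, and its pattern was not that of the adult genes. Of 10 listed embryonic and minor globin genes, 8 were in the table and only Hbb-y, the embryonic beta-like globin of yolk sac red cells, was tested. Hbb-y had 1, 1 and 5 counts in Vec 1, 2 and 4, then 20, 33 and 58 counts in CCND2wt 2, 3 and 4, and 0 in each CCND2mut library. It passed the filter on low counts through CCND2wt alone, so tests of its level there were conditioned on that group and their p-values are not given. The log2 difference of CCND2wt from Vec was 3.70 (SE 0.758), and 3.35 (SE 0.854) without Vec 1. Against the CCND2wt mean of 2.04 CPM, a floor of 3 counts over the CCND2mut group gives a level at least 31.6-fold lower in CCND2mut. The levels of Hbb-y were 1.06, 1.87 and 3.19 CPM in CCND2wt 2, 3 and 4. The minor alpha-like gene Hbq1b, with 163, 0 and 23 counts in Vec 1, 2 and 4 and 0 to 6 elsewhere, was high where the adult globins were high.

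Further red cell genes were taken from lists of membrane and skeleton proteins, haem synthesis and iron supply, erythroid transcription, terminal maturation and the other carbonic anhydrases, 84 tested genes with Hbb-y. In CCND2mut against Vec, 48 passed as lower and 6 as higher in edgeR, against 26.9% and 24.9% of all tested genes. Without Vec 1 these counts were 33 and 9, and without CCND2mut 3 a total of 32 passed in either direction. In CCND2wt against Vec, 9 passed as lower and 2 as higher, against 9.05% and 9.71% of all genes, so that the share lower was near the background and the share higher was below it. That total of 11 became 30 without Vec 2, and 6, 5 and 5 without CCND2wt 2, 3 and 4. The number of all genes that passed in this comparison also moved when a library was left out, as given at the end. These totals are therefore not read as changes particular to red cell genes. In CCND2mut against CCND2wt, 23 passed as lower and 8 as higher, against 23.8% and 23.2%. Among genes called higher against Vec, Car4 in CCND2mut and Hbb-y in CCND2wt passed the filter on low counts only through those groups. The same condition holds for both genes in CCND2mut against CCND2wt, where Hbb-y is among those counted as lower.

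Among membrane and skeleton genes most calls were lost without Vec 1. Of 21 tested, 16 fell and 1 rose in CCND2mut against Vec (median log2 difference -4.57), against 26.9% and 24.9% of all genes, but without Vec 1 only 4 fell (median -1.69), against 25.5%. Other choices moved the number too: 9 fell without CCND2mut 1, and with all libraries DESeq2 called 16 as lower and limma-voom 2. Ank1 fell by 5.15 (SE 1.19, edgeR adjusted p = 0.00706) and by 3.04 without Vec 1 (SE 0.662, edgeR adjusted p = 0.00689). The beta spectrin gene Sptb, at 215, 4.14 and 27.4 CPM in Vec 1, 2 and 4 and 6.54 to 11.5 CPM in CCND2mut, fell by 3.26 (SE 1.13, edgeR adjusted p = 0.0399). Without Vec 1 its difference was -0.88 (edgeR adjusted p = 0.284). Aqp1, the gene of a water channel, likewise passed with Vec 1 and not without it.

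Mfsd2b, which exports sphingosine-1-phosphate from red cells and platelets, was low in CCND2mut alone. It was at 47.3, 24.4 and 25.1 CPM in Vec 1, 2 and 4, at 40.2, 37.5 and 33.4 CPM in CCND2wt 2, 3 and 4, and at 4.86, 0.935 and 2.59 CPM in CCND2mut 1, 2 and 3. It fell by 3.52 (SE 0.527, edgeR adjusted p = 0.000887) and by 3.15 without Vec 1 (SE 0.486, edgeR adjusted p = 0.00147). Glycophorin C (Gypc) fell by 1.22 (SE 0.267, edgeR adjusted p = 0.00527). Stomatin (Stom), a membrane protein of red cells that other tissues also make, went the opposite way and rose by 2.60 (SE 0.575, edgeR adjusted p = 0.0058), to 381, 214 and 275 CPM in CCND2mut 1, 2 and 3, and by 3.69 without Vec 1. None of the 21 passed in CCND2wt against Vec by edgeR or limma-voom, while DESeq2 called 4 and an unadjusted p under 0.05 in edgeR called 10, all lower.

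Haem synthesis and iron genes were mixed. Of 18 tested, 5 fell and 1 rose in CCND2mut against Vec, with a median log2 difference of -0.83, against 26.9% and 24.9% of all genes. Without Vec 1, 4 fell and 3 rose and the median was -0.07. In CCND2wt against Vec 4 fell, against 9.05% of all genes, with a median of -0.76. Without Vec 1, 4 fell and 1 rose and the median was -0.21. Alas2 fell in CCND2mut by 5.19 (SE 1.48, edgeR adjusted p = 0.0184) and by 3.55 without Vec 1 (SE 1.25, edgeR adjusted p = 0.0463). Fech, the last enzyme of the pathway, did not pass, at -0.87 (SE 0.714, edgeR adjusted p = 0.332), and its CCND2mut levels of 33.6 to 67.5 CPM were above the Vec 2 level of 21.3 CPM. Ppox, which makes protoporphyrin, fell by 1.25 in CCND2mut (SE 0.146, edgeR adjusted p = 0.000242), and in CCND2wt it fell by 0.87 (SE 0.144, edgeR adjusted p = 0.00582). The haem-binding protein gene Hebp1 fell by 3.12 in CCND2mut (SE 0.63, edgeR adjusted p = 0.00379). The mitochondrial iron importer Slc25a37 fell in both, by 1.19 in CCND2wt (edgeR adjusted p = 0.0216) and 0.97 in CCND2mut (edgeR adjusted p = 0.018).

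The transferrin receptor gene Tfrc, through which cells take up iron, fell in CCND2wt by 2.05 (SE 0.476, edgeR adjusted p = 0.0212). It was at 258, 87 and 62.4 CPM in Vec 1, 2 and 4, at 32.7, 36.2 and 29.3 CPM in CCND2wt 2, 3 and 4, and at 149, 114 and 133 CPM in CCND2mut 1, 2 and 3. Every CCND2wt library was below every other library. Without Vec 1 Tfrc fell in CCND2wt by 1.16 (edgeR adjusted p = 0.00444), and it rose in CCND2mut against Vec by 0.82 (SE 0.179, edgeR adjusted p = 0.00651). Ferritin heavy chain (Fth1) also fell in CCND2wt, by 0.96 (SE 0.219, edgeR adjusted p = 0.0193). Tfrc thus separated the groups in another order than the globins, with CCND2wt lowest.

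A list of 14 genes held erythroid transcription factors and the erythropoietin receptor. Of these, 8 fell and 0 rose in CCND2mut against Vec by edgeR adjusted p, against 26.9% and 24.9% of all genes. By an unadjusted p 9 fell and 0 rose, and limma-voom and DESeq2 also called 0 as higher. Without Vec 1, 7 fell, against 25.5% of all genes, and 1, Nfe2, rose. Those with the smallest adjusted p were Ldb1, a bridging partner of GATA1 and TAL1, which fell by 1.62 (SE 0.126, edgeR adjusted p = 4.36e-05), and the corepressor Cbfa2t3, which fell by 2.40 (SE 0.188, edgeR adjusted p = 4.41e-05). Ldb1 and Cbfa2t3 were also the 2 genes of this list that passed as lower in CCND2wt against Vec, against 9.05% of all genes. Bcl11a, a repressor of embryonic globin genes that B cells also use, fell by 5.93 (SE 0.92, edgeR adjusted p = 0.00106). Tal1 fell by 3.4 (SE 0.76, edgeR adjusted p = 0.00611), with 259, 138 and 220 CPM in Vec 1, 2 and 4 and 41.1, 14 and 3.12 CPM in CCND2mut 1, 2 and 3.

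Gata1 did not follow the globins. It was at 37, 9.24 and 18.7 CPM in Vec 1, 2 and 4, at 38.5, 35.3 and 39.4 CPM in CCND2wt 2, 3 and 4, and at 11.2, 52.5 and 48.8 CPM in CCND2mut 1, 2 and 3. Its log2 difference was 0.79 in CCND2mut against Vec (SE 0.605, edgeR adjusted p = 0.3), and CCND2mut 2, the library with the lowest globins, had the highest Gata1. Mast cells, basophils and megakaryocytes also use Gata1. Klf1, the activator of the adult beta globin genes, was at 42.8, 0.475 and 5.45 CPM in Vec 1, 2 and 4 and at 1.34, 0.935 and 2.66 CPM in CCND2mut 1, 2 and 3. It differed by -3.30 (SE 1.24, edgeR adjusted p = 0.0531) and did not pass, and without Vec 1 by -0.86 (edgeR adjusted p = 0.415).

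Of 21 genes of terminal maturation and of defence against oxidants, 16 fell and 1 rose in CCND2mut against Vec (median log2 difference -1.88), against 26.9% and 24.9% of all genes. Without Vec 1 it was 14 and 3, where 25.5% of all genes passed as lower. Catalase (Cat) fell by 1.86 (SE 0.207, edgeR adjusted p = 0.000195), with 24.2, 27.1 and 23.4 CPM in CCND2mut 1, 2 and 3 against 64.4 to 120 CPM in Vec and 88.1 to 92.6 CPM in CCND2wt. The peroxiredoxin gene Prdx2 fell by 1.88 (SE 0.342, edgeR adjusted p = 0.0023), Bpgm, which makes the haemoglobin effector 2,3-bisphosphoglycerate, by 2.97 (SE 0.556, edgeR adjusted p = 0.00267), and Ube2l6 by 4.09 (SE 0.722, edgeR adjusted p = 0.00198). Without Vec 1 these 3 genes fell by 1.30, 2.22 and 3.18 and still passed. Fbxo7 fell by 1.31 (SE 0.146, edgeR adjusted p = 0.000195), and in CCND2wt it fell by 1.00 (SE 0.144, edgeR adjusted p = 0.00337). Rgcc went in opposite directions: in CCND2mut it rose by 1.96 (SE 0.276, edgeR adjusted p = 0.000638), and in CCND2wt it fell by 2.19 (SE 0.281, edgeR adjusted p = 0.00236).

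**Figure D4:**
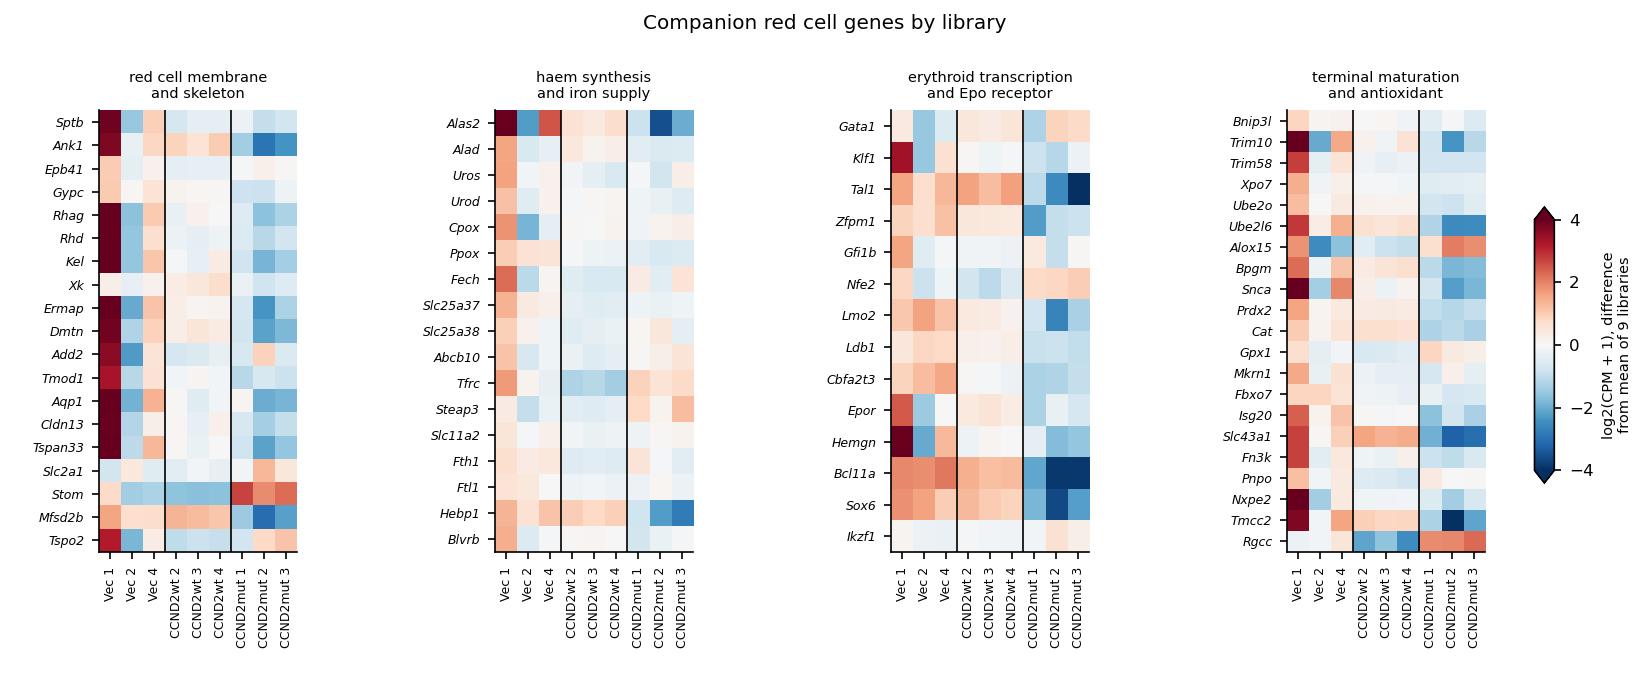
Difference of log2(CPM + 1) from the mean of the 9 libraries for tested genes of 4 red cell lists; rows are genes, columns are libraries, black lines separate Vec, CCND2wt and CCND2mut, and colours saturate at 4. Vec 1 is high in most membrane genes, while Mfsd2b, Bcl11a, Tal1 and Slc43a1 are low in all CCND2mut libraries and not high in Vec 1 alone.

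Among 9 tested carbonic anhydrase genes besides Car1 and Car2, Car13 shared with Car2 its low level in CCND2mut. It was at 15.1, 9.03 and 20.8 CPM in Vec 1, 2 and 4, at 20.6, 19.4 and 20.1 CPM in CCND2wt 2, 3 and 4, and at 0.121, 0 and 0.199 CPM in CCND2mut 1, 2 and 3. Unlike Car2, its Vec and CCND2wt libraries overlapped. Car13 fell in CCND2mut against Vec by 7.03 (SE 0.591, edgeR adjusted p = 6e-05). Car4, an enzyme on the cell surface, had 0 counts in all Vec and CCND2wt libraries and 16, 12 and 38 counts in CCND2mut 1, 2 and 3. It passed the filter on low counts through CCND2mut alone, so its test as higher there was conditioned on that group. Car8, a family member without enzyme activity, rose in CCND2wt by 4.05 (SE 0.562, edgeR adjusted p = 0.003), from 0.747 to 1.86 CPM in Vec to 18.9, 19.2 and 26.5 CPM. Of these 9 genes, 3 fell and 3, Car4 included, rose in CCND2mut against Vec, against 24.9% and 26.9% of all genes as higher and lower. Without Vec 1, 4 fell and 1 rose. In CCND2wt against Vec 1 rose and 0 fell by edgeR; at an unadjusted p, by DESeq2 and by limma-voom 1 fell there.

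The label of the tissue and the markers of other blood cells were set beside these values. Summed over 12 erythroid markers in the table, 8 of them the genes described here, levels were 18413, 958 and 4616 CPM in Vec 1, 2 and 4. They were 1750, 1689 and 1887 CPM in CCND2wt 2, 3 and 4, and 338, 33.2 and 93 CPM in CCND2mut 1, 2 and 3. No erythroid marker was at 0 in any library, and 8 of the 12 were under 1 CPM in CCND2mut 2. Most of the erythroid sum of Vec 2 was Car2, with 810 CPM.

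Markers of maturing neutrophils, all 12 in the table and none at 0 in any library, summed to 15495, 606 and 711 CPM in Vec 1, 2 and 4. They summed to 155 to 272 CPM in CCND2wt and to 21304, 6127 and 5960 CPM in CCND2mut 1, 2 and 3. Within Vec and within CCND2mut, the library highest in red cell genes therefore also had the highest sum of neutrophil markers. This did not hold in CCND2wt, where CCND2wt 4 had the highest erythroid sum. Neutrophil markers there summed to 272, 155 and 206 CPM in CCND2wt 2, 3 and 4. Single markers differed: Lcn2, Cxcr2 and Padi4 were highest in CCND2mut 2 within that group, where red cell genes were lowest. Monocyte and macrophage markers, 12 in the table with at most 1 at 0, summed to 50.9 to 454 CPM in Vec, 49.2 to 52.4 CPM in CCND2wt and 1159 to 4481 CPM in CCND2mut. Most of the CCND2mut sums was Ly6c2, at 930, 1732 and 4208 CPM in CCND2mut 1, 2 and 3. Means of Csf1r, Cx3cr1, Adgre1 and Vcam1 were also higher in CCND2mut than in Vec. Those of C1qa, C1qb, C1qc, Mrc1, Ccr2 and Cd68 were lower. Without Vec 1, the Vec means of Mrc1, Ccr2 and Cd68 were 4.46, 6.06 and 14.9 CPM. Their CCND2mut means were 6.96, 11.4 and 15 CPM and thus no longer lower. For C1qa, C1qb and C1qc the Vec means without Vec 1 were 5.79, 5.26 and 5.83 CPM, still above 3.21, 4.29 and 3.31 CPM in CCND2mut. B cell markers, 12 with up to 4 at 0, summed to 55.9 to 405 CPM in Vec, 28.2 to 30.6 CPM in CCND2wt and 6.44 to 16.7 CPM in CCND2mut. The part of these cells in the differences of the red cell genes was not tested.

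Stem and progenitor markers, 12 with up to 3 at 0, had a lower sum in every CCND2mut library than in any other library, as Car2 had a lower level. They summed to 2497, 3156 and 2892 CPM in Vec 1, 2 and 4, to 2868 to 3032 CPM in CCND2wt and to 573, 655 and 224 CPM in CCND2mut 1, 2 and 3. Single markers differed from the sum: Flt3 was at 62 to 145 CPM in Vec and 27 to 35.1 CPM in CCND2wt, and Kit at 710 to 913 and 1098 to 1121 CPM. Cd34 did not separate CCND2mut from Vec. It was at 445, 651 and 565 CPM in Vec 1, 2 and 4 and at 433, 465 and 148 CPM in CCND2mut 1, 2 and 3. Cd34 thus made up most of the sums of CCND2mut 1, 2 and 3. Megakaryocyte and platelet markers, 12 with up to 3 at 0, were also lowest in CCND2mut, at 400 to 516 CPM in Vec, 395 to 407 CPM in CCND2wt and 37.4 to 92.9 CPM in CCND2mut. Mast cell and basophil markers, 12 with at most 1 at 0, summed to 8561 to 11547 CPM in Vec, 18614 to 19370 CPM in CCND2wt and 1907 to 16388 CPM in CCND2mut. T and NK cell markers, 12 with up to 5 at 0, summed to 33.8 to 140 CPM over the 9 libraries. Their part in the level of Car2 was not tested.

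**Figure D5:**
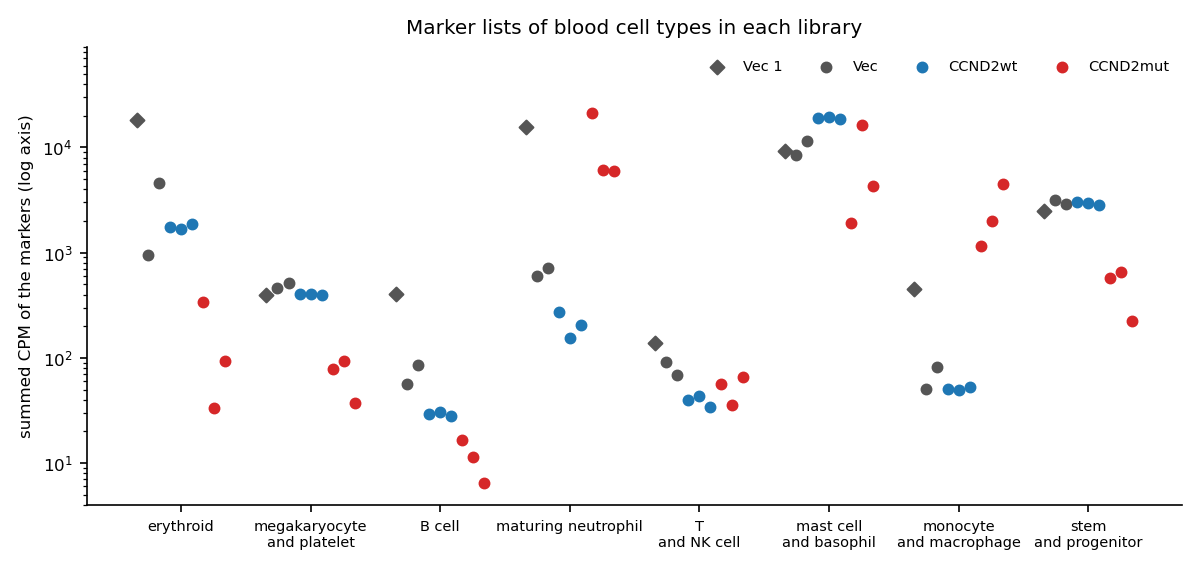
Summed CPM (log axis) of the markers of 8 blood cell types, coloured by group; each point is a library and Vec 1 is drawn as a diamond. Vec 1 exceeds Vec 2 and Vec 4 in erythroid, B cell, neutrophil and monocyte markers, while stem and progenitor markers separate CCND2mut (224 to 655 CPM) from the other libraries (2497 to 3156 CPM).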

How the data were processed

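Per the labels' protocols, RNA was extracted with TRIzol and sequenced from NEBNext Ultra libraries. The deposited values are raw counts per gene made by the authors; per the submitters' processing notes, tools included CASAVA 1.8, fastp, HISAT2 2.0.5, featureCounts 1.5.0-p3 and DESeq2 1.20.0, with mm10. Annotation release and strand setting: not given in the sources used here. All 9 libraries were joined to groups by title, with 0 count columns left over. Genes passing filterByExpr (15660 of 54532) were scaled by TMM and fitted together with edgeR 4.0.16 (R 4.3.3, limma 3.58.1; robust quasi-likelihood, 6 residual degrees of freedom), and p-values were adjusted by Benjamini-Hochberg over all tested genes with a threshold of 0.05. The median biological coefficient of variation was 0.246. CPM are counts over the TMM-scaled library sizes. The fit was checked on simulated counts with known changes. Intervals are exact at 95% and cover counting error only.

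Besides the 9 genes, a rule named up to 4 genes per list with the smallest adjusted p in CCND2mut and up to 3 in CCND2wt against Vec, genes over 50 CPM, and the 3 nearest profiles; the text uses some of these, and Gata1, Klf1, Hbq1b and Slc43a1 of the same lists were named after their values were seen. The genes and lists were chosen with earlier results of these data known. Alternatives were RLE factors, library totals, haemoglobin genes left out of library sizes, no filter and a stricter filter (50 counts in 3 libraries), DESeq2 1.42.0, limma-voom, only the groups compared, a replicate block and each library left out. After the data were seen, Vec 1 and CCND2mut 1 were left out together, and the CCND2wt libraries were summed to 1 sample. Some genes of the lists are counted but not reported here by name.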

Additional observations from a re-analysis of the deposited data

How the results depend on the processing

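All log2 differences of the 8 genes kept their sign under every alternative run, except that of Epb42 in CCND2wt against Vec: 0.34 with the replicate block, 0.56 without Vec 1 (-2.04 to 0.56 with each library left out), and 0.56 without Vec 1 and CCND2mut 1. Of the single-gene values under alternatives, 128 in CCND2mut against Vec stayed on their side of the threshold and 30 fell short of it. In CCND2mut against CCND2wt 121 stayed, 27 newly passed and 10 fell short, and in CCND2wt against Vec 153 stayed and 2 newly passed. Car2 passed in CCND2mut against Vec in 19 of 19 alternatives with a value, at log2 -8.29 to -5.51 (DESeq2 gave it no adjusted p). Slc4a1 passed in 7 of 20. The cause of these changes was not tested, except that leaving out or summing libraries leaves fewer samples.

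Of the 8 genes, those called in CCND2wt against Vec were 0, with 1 when only the groups compared were fitted and 0 to 1 with each library left out. In CCND2mut against Vec they were 8, with 2 without a filter on low counts, 3 with limma-voom and 4 to 8 with each library left out. In CCND2mut against CCND2wt they were 2, with 1 without a filter, 5 with DESeq2, 1 with limma-voom, 7 with only the groups compared, 8 with the replicate block, 1 to 6 with each library left out, 6 without Vec 1 and CCND2mut 1, and 0 with the CCND2wt libraries summed.

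Of the companion genes, 11 were called in CCND2wt against Vec, with 21 by DESeq2, 6 with the replicate block, 5 to 30 with each library left out, 17 without Vec 1 and CCND2mut 1, and 0 with CCND2wt summed. In CCND2mut against Vec, 54 became 34 without a filter, 32 with limma-voom, 31 with only the groups compared, 32 to 60 with each library left out and 29 with CCND2wt summed. In CCND2mut against CCND2wt, 31 became 51 with only the groups compared, 24 to 42 with each library left out, 48 without Vec 1 and CCND2mut 1, and 10 with CCND2wt summed.

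Over all tested genes, 2938 passed in CCND2wt against Vec, with 1636 under the replicate block, 1019 to 3817 with each library left out, 4470 without Vec 1 and CCND2mut 1 and 39 with CCND2wt summed. In CCND2mut against CCND2wt, 7360 became 2378 with CCND2wt summed. Groups share only 2 replicate numbers with each other, and same-numbered libraries deviated from their group means with correlations of -0.0727 to 0.187, so the numbers do not pair the samples. At these depths Car1, with 1 to 12 counts in CCND2mut, is measured poorly, and Hbb-y cannot be placed below 3 counts.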
